A study of Mus musculus with 37 samples.

Results

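Interferon regulatory factors (IRFs) are the transcription factors through which Toll-like receptors and interferons switch on antiviral and inflammatory genes. This account covers the open reading frames (ORFs) of 7 of them, Irf1, Irf2, Irf3, Irf4, Irf5, Irf8 and Irf9, in mouse bone marrow-derived dendritic cells. Of the 22367 ORFs that the authors scored as translated, all 13 whose name carries one of these symbols were taken, which are 7 of 10418 gene families. Irf7 was also asked for and was not analysed here.

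The ORFs were called from ribosome footprints, which are pieces of mRNA kept from digestion by the ribosome on them, of C57BL/6J mice aged 6 to 8 weeks. Of 37 libraries, 16 came from cells given lipopolysaccharide (LPS, a bacterial product, at 100 ng/mL) for 0.5 to 12 h and 8 from mock-treated cells over the same times, all with cycloheximide at 100 ug/mL for 1 min. A further 2 were from naive cells with cycloheximide, 8 from LPS-treated and 1 from naive cells with no inhibitor. There was 1 library with harringtonine (1 ug/mL, 5 min) and 1 with lactimidomycin (50 ug/mL, 30 min). Each was a mix of LPS times, from 0 to 9 h for harringtonine and from 0 to 12 h for lactimidomycin. Cycloheximide arrests elongating ribosomes, and harringtonine and lactimidomycin hold them at start codons. The lysis buffer of all samples held cycloheximide, also where no inhibitor was used on the cells. The list is a single one for all libraries, with no value per library. LPS, mock and inhibitor groups were therefore not compared, depth per library is unknown, and no value below has a replicate or a test.

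All IRFs carry a DNA-binding domain at the amino end, built around conserved tryptophans, that recognises GAAA repeats in interferon-stimulated response elements. Most also carry an IRF association domain toward the carboxy end, through which they bind each other, STAT proteins or PU.1. Irf1 and Irf2, which are close relatives and have another kind of carboxy end, form one branch of the family. Irf4, Irf8 and Irf9 form another branch, and Irf3 and Irf5 belong to further ones. In dendritic cells, Irf4 and Irf8 direct the development of different subsets, and Irf3, Irf5 and Irf1 act in the response to LPS.

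Marker genes of the labelled cell type and of most other types had listed ORFs. For comparison, 46% of 21900 protein-coding genes had a listed ORF. The marker lists were chosen with earlier results of these data known. Of 12 dendritic cell markers, 10 had a listed ORF, among them Itgax, Cd74, Ccr7 and Zbtb46, while Flt3 and Cd209a had none among the lines analysed. All 8 macrophage and monocyte markers and all 8 neutrophil markers had one as well, as did 3 of 3 fibroblast markers, 2 of 4 plasmacytoid dendritic cell markers (Tcf4 and Bst2), 1 of 3 B cell markers (Cd79a), 1 of 3 mast cell markers (Cpa3) and none of 3 T cell markers. A listed ORF does not say how much of a gene's footprints came from which cell, so the part of other cells in the IRF values was not tested.

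Each IRF gene had at least 1 ORF of 329 codons or more with a score of 952 or more. Irf2 had 2 such ORFs and Irf4 had 3, and 5 of the 7 genes had more than 1 ORF of any kind. The score is the authors' own, a whole number from 500 to 991 in this list, and is used to rank ORFs within it. The highest-scoring ORF of a family, with ties going to the longest, is called the leading ORF. The leading ORFs of the IRFs scored 952 to 991 with a median of 969, against a median of 941 and quartiles of 853 and 970 over the 10418 families. All 7 scored 900 or more, as did 65.1% of all leading ORFs. They had 329 to 497 codons, with a median of 419 against 385 for all families.

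**Figure D1:**
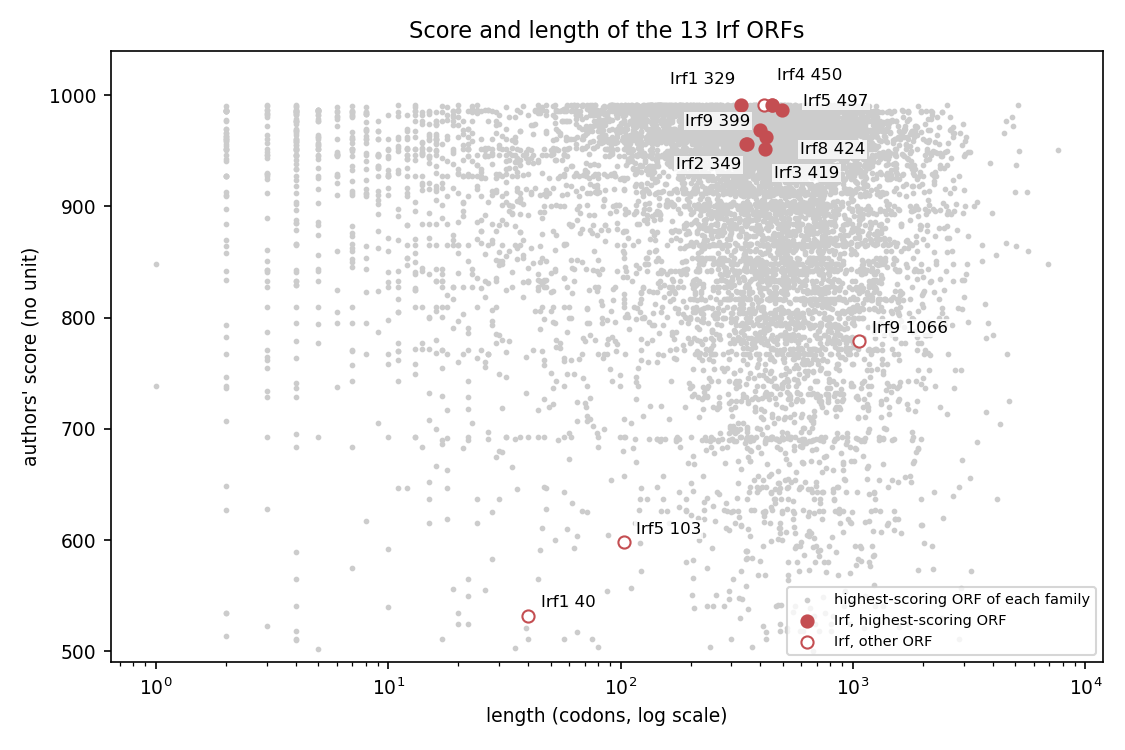
Authors' score (no unit) against length in codons (log scale) for the leading ORF of each of 10418 families (grey), the leading ORFs of 7 Irf genes (filled) and their other ORFs (open). The filled points lie between 952 and 991, and the open points of Irf9 (1066 codons), Irf5 (103 codons) and Irf1 (40 codons) lie at 779, 598 and 532.

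Irf1, an activator induced by interferon gamma that drives genes of antigen presentation, scored 991 with an ORF of 329 codons. Its span is chr11:53584791-53589948 on the plus strand of mm9, the build of all ORF positions here, counted from 1. Irf2, which binds the sites of Irf1 and often represses them, scored 956 with 349 codons at chr8:47878853-47931576, plus strand. In the ranking of leading ORFs, 98.3% of families lay below Irf1 and 60.9% below Irf2.

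Irf3, held latent in the cytoplasm until Tbk1 phosphorylates it to induce interferon beta, had 419 codons and a score of 952 at chr7:52254083-52257716. Irf5, which drives inflammatory cytokine genes downstream of Myd88, had 497 codons and a score of 987 at chr6:29481137-29486785. Irf3 had the lowest score of the 7, with 58.1% of families below it, and Irf5 had 91.9% below it. Both lay on the plus strand.

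Irf4 and Irf8, which bind DNA weakly alone and act with PU.1 or with Batf family partners, scored 991 and 962. The longest ORF of Irf4 had 450 codons at chr13:30842449-30855536, and that of Irf8 had 424 codons at chr8:123263718-123279075. Irf9, which joins Stat2 in the complex ISGF3 that answers type I interferon, had a leading ORF of 399 codons with a score of 969 at chr14:56223890-56227868. All 3 lay on the plus strand. Irf4 and Irf1 shared the score of 991, the highest in the list, which 176 leading ORFs in all (1.69%) had. Of all families, 65.4% lay below Irf8 and 72.4% below Irf9.

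Although the list holds many short ORFs ahead of coding sequences, no ORF of an IRF was classed as upstream when the longest ORF of a family was taken as its main ORF. Over all families, 20.2% had an upstream ORF, here counting those that run over the main start and those on another transcript of the family. None of the 7 IRF families had one, and a count of 0 in 7 allows a share of up to 42.9% (3 of 7, a rough limit for counting error only). The 7 genes were chosen by name and not drawn as a sample, so this limit is no estimate for other genes. For Irf9, however, the longest ORF was one of 1066 codons, not the leading ORF of 399. With the leading ORF as the main one, 1 of the 7 had an upstream ORF, against 16.4% of families. Another in-frame start is an ORF with the main stop codon and a different start. With the longest ORF as main, none of the 7 had one, against 23% of families. Of the 7, 2 (Irf3 and Irf8) had a single ORF, against 43.7% of families. The added ORFs of Irf2 and Irf4 were splice variants with the main start and stop. Irf9 counted as having more than a single ORF through the 1066-codon ORF of its transcript, described below. No difference from other genes was tested on these 7.

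The leaders of these ORFs lay on both sides of the median of all families. The leader, the transcript bases before the start codon, had 270 bases in Irf1, 198 in Irf2, 427 in Irf3, 213 in Irf5 and 55 in Irf8. In Irf4 it had 70, 89 or 384 bases, depending on the transcript. The median over all leading ORFs was 188 bases, with quartiles of 93 and 363. Irf3 had the longest of these leaders and Irf8 the shortest. Among the 6990 families whose leading ORF had a leader of 55 to 427 bases, the range of the 6 genes other than Irf9 for their leading ORFs, 13.5% had an ORF upstream of it, and none of those 6 did.

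All 7 leading ORFs began close to the 5′ edge of an exon that was not the first of its transcript. The first base of the start codon followed 1 base of its exon in Irf8 and in Irf9, 5 in Irf1, 6 in Irf2, 8 in Irf3, 11 in Irf5 and 32 in Irf4. In Irf1, Irf2, Irf3, Irf4, Irf5 and Irf8 that exon was the second, so the first exon held no coding base. In Irf9 it was exon 23 of 30, on a transcript that also carried an ORF of 1066 codons ahead of it. For Irf9, a start after the first exon therefore rests on that transcript model. A start in the second exon was found for 27.7% of leading ORFs on transcripts of several exons, and a start anywhere after the first exon for 39.8%. A start after the first exon and no more than 32 bases into its exon, a limit set by Irf4 itself, was found for 20.3%.

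**Figure D2:**
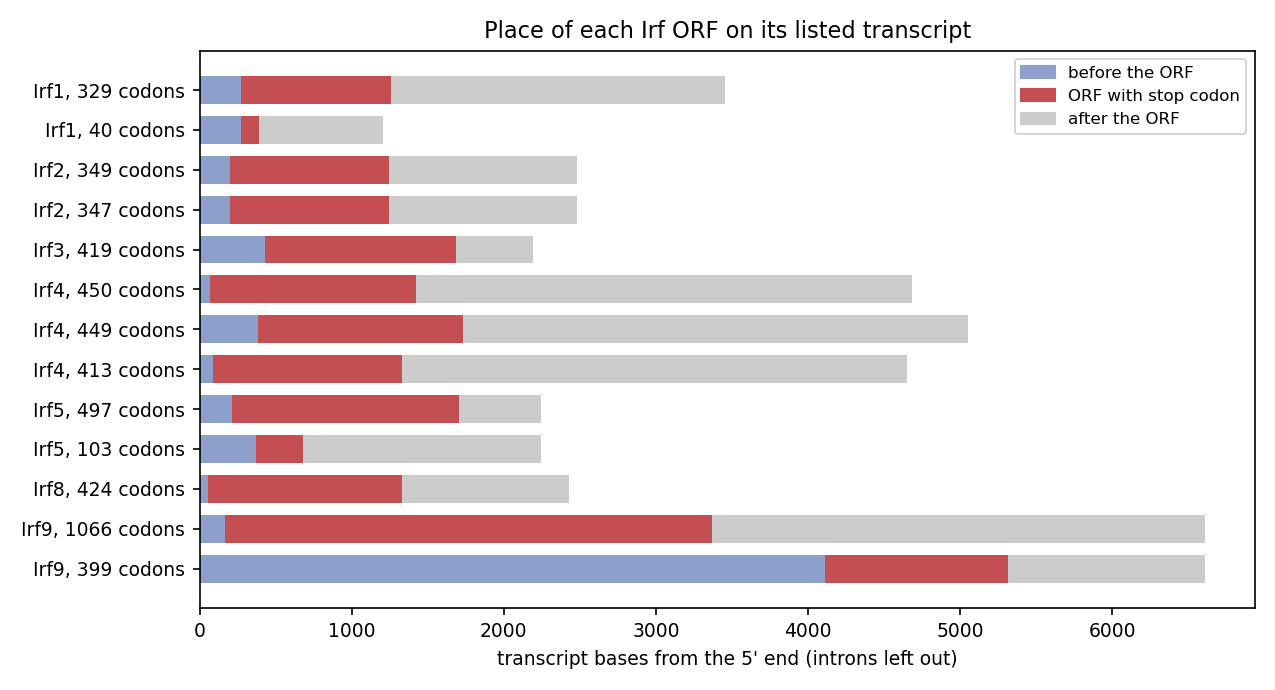
Transcript bases (introns left out) before, within and after each of the 13 Irf ORFs on its listed transcript. The ORF of 399 codons of Irf9 starts after 4115 bases, while the leaders of Irf1, Irf2, Irf3, Irf4, Irf5 and Irf8 leading ORFs have 55 to 427.

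The leading ORFs had the phases of their first 2 junctions in common and differed after them. A junction between coding exons has phase 0 if it falls between codons, and phase 1 if it falls after the first base of a codon. In all 7 genes the first junction had phase 0 and the second phase 1, against 15.3% of the 8411 leading ORFs with 3 or more coding exons. This order was read from the members first, so they had to match it. The number of coding exons was 7 in Irf3, 8 in Irf2, Irf4, Irf5, Irf8 and Irf9, and 9 in Irf1. These structures come from the transcript models of the list and are no measurement of translation.

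Irf1 and Irf2 had identical sizes for their first 3 coding exons, at 87, 100 and 177 bases. No other family had these sizes at the start of its leading ORF, so the 2 genes made up 0.0238% of the 8411. The sizes were read from these 2 genes first, so both had to match. Their first 7 junctions had phases 0, 1, 1, 0, 1, 1 and 0. The fourth exons differed by 3 bases (50 in Irf1 and 47 in Irf2), the fifth by 15 (133 and 118), the sixth by 42 (123 and 165) and the seventh by 3 (50 and 47). Irf1 then split its last stretch into exons of 136 and 134 bases, while Irf2 ended in a single coding exon of 309 bases. No other leading ORF in the list had the phases of Irf2 (0.194% of the 515 with 8 coding exons).

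Irf4, Irf5, Irf8 and Irf9 shared another order of phases, 0, 1, 0, 1, 1, 1 and 0. Of the 515 leading ORFs with 8 coding exons, 4 had it (0.777%), and these were the 4 IRFs. This depends on the ORF used. With any ORF of a family counted, 5 families had this order, of which 4 were IRFs. With the longest ORF, 3 families had it, all IRFs, Irf9 being left out. Their second coding exons had 187, 190, 184 and 184 bases in the order Irf4, Irf5, Irf8 and Irf9. Their seventh had 113, 119, 116 and 116 bases. These exons varied by 6 bases each, while the fourth ranged from 34 bases in Irf5 to 145 in Irf4 and the fifth from 48 in Irf8 to 258 in Irf5. The sixth, the largest in each gene, had 354, 393, 381 and 342 bases. The eighth ranged from 111 bases in Irf9 to 246 in Irf5. The fifth coding exon thus varied most among the 4 genes, by 210 bases, and the second and seventh least.

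Irf3 had a similar plan with 1 exon fewer. Its junctions had phases 0, 1, 0, 1, 1 and 0, and its last 3 coding exons had 378, 116 and 183 bases. A third-last coding exon of 342 to 393 bases followed by one of 113 to 119 bases, the ranges of Irf3, Irf4, Irf5, Irf8 and Irf9, was found in 6 of 8411 leading ORFs (0.0713%). The sixth was that of Vash1, with 382 and 113 bases. The phases of Irf3 were found in 5 of 598 leading ORFs with 7 coding exons (0.836%), the others being Ccpg1, Lats1, Ppp1r1a and 1700030K09Rik, in which the third-last exon had 96 to 252 bases. The ranges and phases, here and in the paragraphs above, were read from the members first, so the members had to match.

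**Figure D3:**
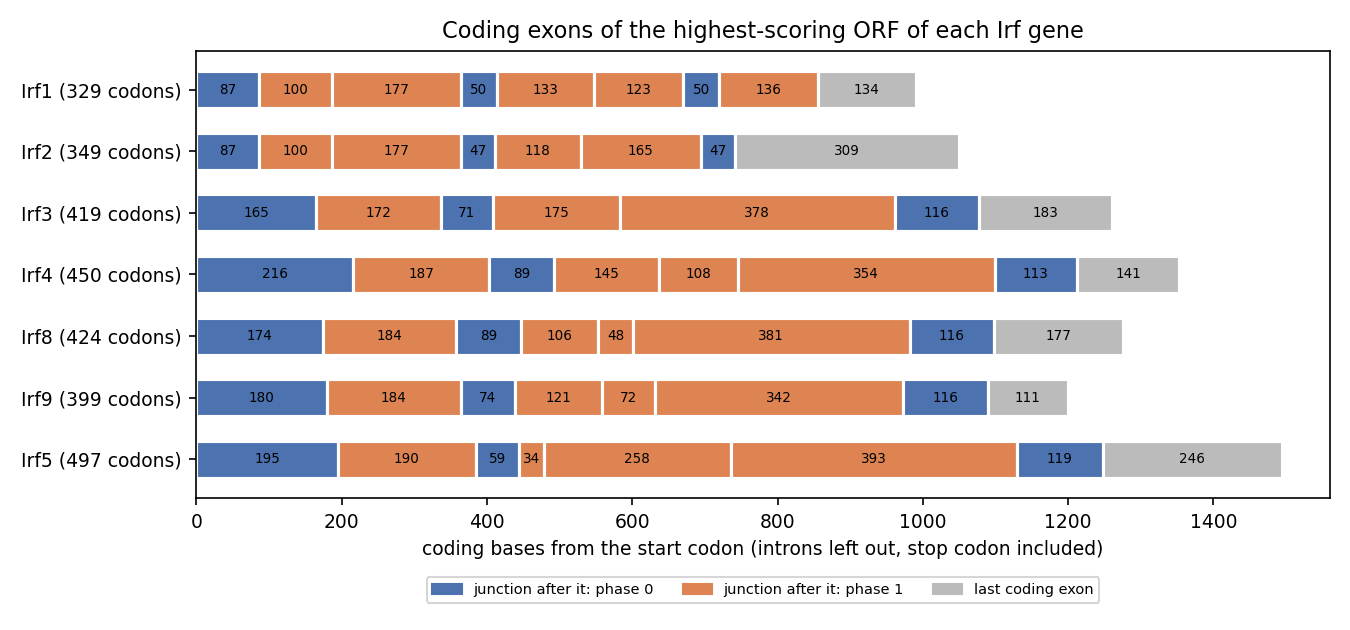
Coding exons of the leading ORF of 7 Irf genes, drawn to scale in coding bases from the start codon, with the size of each exon in bases and the phase of the junction after it in colour. Irf4, Irf8, Irf9 and Irf5 show the same order of colours, Irf3 shows it with 1 exon fewer, and Irf1 and Irf2 begin with exons of 87, 100 and 177 bases.

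Measured from the start codon, the second junction fell after 112 whole codons in Irf3, 119 in Irf8, 121 in Irf9, 128 in Irf5 and 134 in Irf4. In Irf1 and Irf2 the second junction fell after 62 codons, and it was the third, also of phase 1, that fell after 121. Introns differed far more than exons. The listed transcript of Irf3 spanned 5201 bases of genome and that of Irf2 107714, of which one intron, between the first exon and the exon of the start codon, took 53556. Irf3 and Irf2 thus stood near opposite ends of the list, with 12.1% and 91.1% of families having a shorter span.

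After the stop codon, the listed transcripts of the leading ORFs had 502 bases in Irf3, 535 in Irf5, 1097 in Irf8, 1236 in Irf2, 1292 in Irf9, 2196 in Irf1 and 3260 in Irf4. The median over all leading ORFs was 1201. Irf8 was the only one of the 7 to stop before the last exon junction of its transcript, 30 bases ahead of it, in exon 9 of 10. This was so for 17.6% of leading ORFs on transcripts of several exons, and 307 of those 1794 stopped no farther from the junction than Irf8.

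Splice variants with the start and stop of the main ORF were listed for Irf2 and Irf4, against 17.7% of families with such a variant. In Irf2, ORFs of 349 and 347 codons differed at the 5′ edge of the sixth coding exon, which began 6 bases earlier in the longer one (165 against 159 bases). In Irf4, ORFs of 450 and 449 codons differed by 3 bases at the same kind of edge, that of the fourth coding exon (145 against 142 bases), which adds 1 codon. A pair that differs by an acceptor site moved by 3 bases was found in 2.06% of families, and one moved by 6 bases in 0.643%.

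The third ORF of Irf4, of 413 codons, lacked the fifth coding exon of 108 bases, which takes out 36 codons and keeps the frame. A pair that differs by 1 whole coding exon was found in 8.88% of families. Without that exon the junctions of Irf4 had phases 0, 1, 0, 1, 1 and 0, the order of Irf3. The 3 transcripts also differed at the 5′ end. That of the 450-codon ORF began with an exon of 38 bases and that of the 413-codon ORF with one of 57 bases, both ending at 30841164 on chromosome 13. That of the 449-codon ORF had a first exon of 352 bases, at chr13:30841348-30841699. All 3 joined the exon of the same start codon.

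The scores do not tell these variants apart. All 3 ORFs of Irf4 had 991 and both of Irf2 had 956. In the whole list, all 3685 pairs of ORFs in a family with a common start and stop but different coding exons had equal scores, so an equal score says nothing about the use of either variant. Pairs with a common start and a different stop were unlike that, with equal scores in 29 of 1105 (2.62%).

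**Figure D4:**
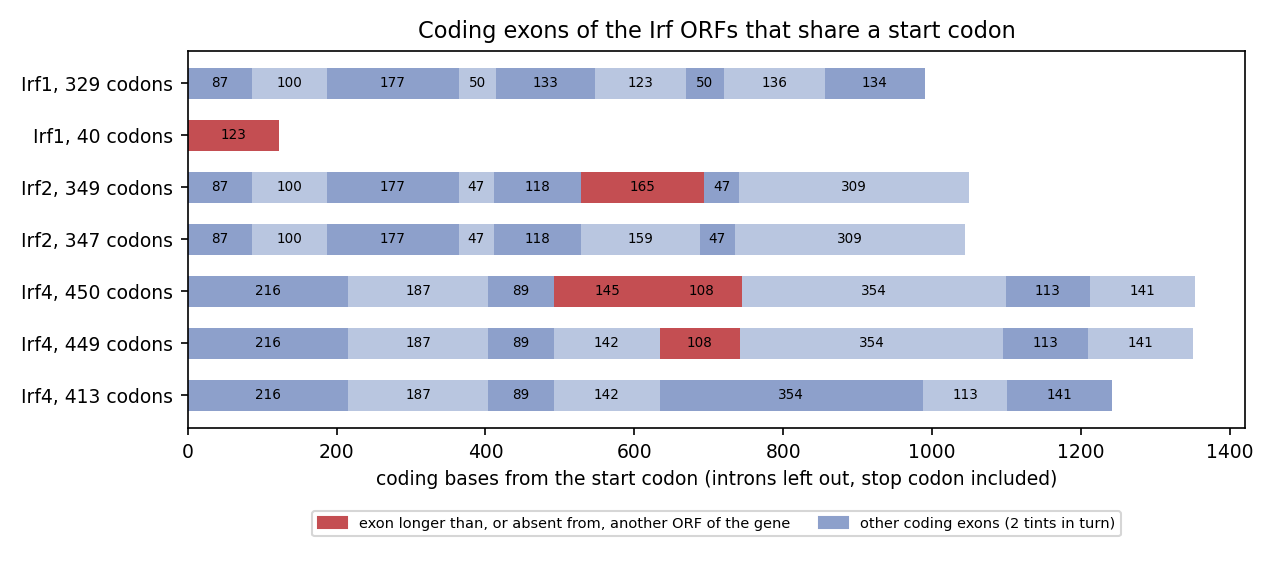
Coding exons of the ORFs of Irf1, Irf2 and Irf4 that share a start codon, to scale in coding bases, with sizes in bases. Red exons are longer than in another ORF of the gene or absent from it: 165 bases against 159 in Irf2, 145 against 142 and an exon of 108 bases in Irf4, and the single coding exon of 123 bases in the 40-codon ORF of Irf1. The later coding exons of the 329-codon ORF of Irf1 are also absent from the 40-codon ORF but are not in red.

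A short ORF of Irf1 ran from the start codon of the long one into the intron behind it. It had 40 codons and scored 532, against 991 for the long ORF, and lay at chr11:53584791-53584913. Its first 29 codons are those of the first coding exon of Irf1. The exon was not spliced at its usual end in this transcript, and 11 more codons followed before a stop. Its listed transcript had 2 exons, of which the second had 938 bases against 92 in the transcript of the long ORF, and ended 846 bases past the splice site, within the intron of 1463 bases.

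Such an ORF, from the main start to a stop in an intron of the main transcript, was found in 2.75% of families. In the list there were 311 of them, with a median score of 757, and 247 scored below their main ORF. That of Irf1 is the only in-frame isoform with another stop among the IRFs, a class found in 6.75% of families. Both ORFs of Irf1 share their start codon and 87 coding bases, so footprints on this stretch cannot be assigned to either.

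Irf5 had a second ORF inside the first, in another frame. It had 103 codons and a score of 598 against 987, spanned chr6:29481294-29485065, and began 157 bases after the main start, past 52 whole codons and 1 base. All its 312 bases lay within coding exons of the main ORF, across 4 exons, and it stopped within codon 157 of the main frame. An ORF in another frame or exon within the main span was found in 8.62% of families. The median of these 1250 ORFs was 21 codons with a score of 684, so that of Irf5 was longer than most (53 of 1250, or 4.24%, were at least as long) and scored below the median.

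The transcript listed for Irf9 carried 2 long ORFs, one after the other. It had 30 exons, spanned 18609 bases at chr14:56210552-56229160, and held an ORF of 1066 codons with a score of 779, from 56210721 to 56222422, ahead of the 399-codon ORF with a score of 969. The stop of the first and the start of the second lay 745 transcript bases apart. The first occupied exons 1 to 21 and the second exons 23 to 30. Only the second had the exon phases of Irf4, Irf5 and Irf8.

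In a RefSeq table of a later build, GRCm38.p6, used for lengths and neighbours only, Irf9 has 6046 bases. The protein-coding gene before it on the chromosome is Rnf31, a subunit of the linear ubiquitin ligase complex that acts in NF-kB signalling, with 11962 bases. They lie 310 bases apart, and from the start of Rnf31 to the end of Irf9 there are 18318 bases, close to the 18609 of the listed transcript. No family of the list analysed here was named Rnf31. Which protein the 1066-codon ORF encodes was not tested against sequence. Because it is the longer, the Irf9 ORF counted as downstream of it under the rule of the longest ORF, a class found in 1.91% of families and in 1 of the 7. A downstream ORF of 100 codons or more that outscored its main ORF was found in 50 families (0.48%). With the leading ORF as the main one, the 1066-codon ORF counted as the single upstream ORF of the IRF families, against 16.4% of families with one.

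Nearly all of 71 genes chosen around the IRFs were in the list. The pathway lists held 22 kinases, receptors and adaptors that activate IRFs, 17 partners and cofactors, 7 interferon receptors and their kinases, and 25 target genes. Of these 71 genes, 69 had an ORF, the others being Ifit3 and Il27, against 46% of the 21900 protein-coding genes in the naming table. The 71 were chosen with earlier results of these data known. The 46% covers all protein-coding genes, expressed in these cells or not, so the shares are not alike. By list, upstream ORFs were found in 7 of 22, 4 of 17, 4 of 7 and 4 of 23 genes with a listed ORF. Other in-frame starts were found in 11 of 22, 6 of 17, 4 of 7 and 6 of 23. Together, 19 of the 69 genes with a listed ORF had an upstream ORF, where 20.2% of all families had one. Another in-frame start was found in 27 of the 69, where 23% of all families had one. No difference between these lists, the IRFs and all families was tested.

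Up to 6 genes a list with such an ORF are named, those with most ORFs first. Among the activators, Ikbke, the kinase related to Tbk1, had 3 other in-frame starts, and so did Myd88, the adaptor of most Toll-like receptors, while Irak1, a kinase behind Myd88, had 2. Tlr3, the endosomal receptor for double-stranded RNA, had 4 upstream ORFs and 1 other in-frame start. Tank, a scaffold of Tbk1, had 2 upstream ORFs, and Ticam2, a bridging adaptor of Tlr4, had 1 of each kind.

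Among the partners, Stat2, which binds Irf9, had 4 other in-frame starts. Spi1, which encodes PU.1, and Irf2bp2, a corepressor that binds Irf2, had 2 each. Ep300, a histone acetyltransferase, had 1 upstream ORF. Of the receptors and kinases, Jak2 had 3 upstream ORFs and 2 other in-frame starts, Ifngr2, a chain of the interferon gamma receptor, had 1 of each, Ifnar1, a chain of the type I interferon receptor, had 2 upstream ORFs and Tyk2, the kinase bound to it, had 1. Ifngr1 and Jak1 had 1 other in-frame start each. Of the targets, Nlrc5, which drives MHC class I genes, had 11 upstream ORFs and 1 other in-frame start. Mx1 had 3 upstream ORFs, and Socs1, a brake on JAK signalling, had 2 and 1 other in-frame start. Ciita, which drives MHC class II genes, and Psmb9, an immunoproteasome subunit, had 3 other in-frame starts each, and Oas1a, an antiviral oligoadenylate synthetase, had 1.

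The stretches before the gene starts are shown because IRF genes are themselves targets of the pathway. RefSeq windows of GRCm38.p6 were found for all 7 genes, 10 windows in all, and the 250 bases before each start were searched on both strands. The motifs were the interferon-stimulated response element (GAAA, any 2 bases, GAAA), the gamma-activated site TTCNNNGAA, a kappaB site (GGG, any 2 bases, TTTCC) and the TATA box TATAAA, and no matches overlapped in the members. The span of the listed transcripts was within 3 bases of the RefSeq gene in Irf2, Irf3, Irf4 and Irf8, and differed by 268 bases in Irf1. It was 8039 bases in Irf5, where the RefSeq gene has 15740, and 18609 in Irf9, where it has 6046, so the starts of their windows may not be those of the listed transcripts. All sequences below are on the plus strand of GRCm38.p6, with motifs in capitals.
Irf1, chr11:53769904-53769953, bases 110 to 61 before the start: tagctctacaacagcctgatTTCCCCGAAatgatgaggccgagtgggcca
Irf2, chr8:46739495-46739544, bases 250 to 201 before the start: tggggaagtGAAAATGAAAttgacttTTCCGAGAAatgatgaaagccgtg
Irf2, chr8:46739695-46739744, bases 50 to 1 before the start: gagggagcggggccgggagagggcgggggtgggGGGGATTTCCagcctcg
Irf8, chr8:120736178-120736227, bases 180 to 131 before the start: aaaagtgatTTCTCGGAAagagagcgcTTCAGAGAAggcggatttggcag
Irf8, chr8:120736308-120736357, bases 50 to 1 before the start: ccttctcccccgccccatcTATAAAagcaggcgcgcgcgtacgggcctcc
Irf4, chr13:30749183-30749232, bases 50 to 1 before the start: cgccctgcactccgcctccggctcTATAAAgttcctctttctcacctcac

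The gamma-activated site was found in Irf1, Irf2 and, at 2 places, in Irf8, in 3 of 10 windows against 7.02% of all 32851 windows. The response element was found in Irf2 alone, against 2.98% of windows, and so was the kappaB site, against 1.41%. The TATA box stood 26 bases before the start in Irf4 and 31 in Irf8, and is in 12.4% of windows. These are distances to the RefSeq start. Irf4 has 3 listed transcript starts, with leaders of 70, 89 and 384 bases, and they were not matched to it across builds. No match was found in the windows of Irf3, Irf5 and Irf9, of which those of Irf5 and Irf9 lie before RefSeq genes whose span differs from that of the listed transcript. Only the patterns given above were searched, so a window with no match may hold another form of these sites. These matches describe letters in the reference and are no measurement of binding.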

How the data were processed

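Ribosome footprints of 28 to 34 nucleotides were cloned and sequenced by the submitters, per the labels' protocols. The submitters' processing notes name Bowtie2, TopHat and mm9, with no version or role, and no source used here names the ORF caller or says how the score was made. In the deposited list there is 1 line per ORF, with its transcript and coding exons and a score, a whole number from 500 to 991 that the authors assigned. It gives no value per library, so depth is unknown, groups were not compared, and no member value has an error or a test. The limit given for a count of 0 is 3 counts over the number of members.

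Lines were grouped by the gene symbol in their name, with chromosome and strand, into 10418 families. The members and the pathway and marker lists were chosen with earlier results of these data known. Within a family, the longest ORF was taken as the main one. Others were classed by frame, stop and genome position along the strand, whether or not they lay on the main ORF's transcript. The alternatives took the highest-scoring ORF as main, set score minimums of 600, 750 and 900 and codon minimums of 10 and 30, or counted shared starts and stops once. Exon structure was read from the highest-scoring ORF. The classing of an ORF against a given main ORF was tested on simulated data, where 2400 of 2400 ORFs were placed right. The choice of the main ORF and transcripts that join neighbouring genes were not part of that simulation. All ORFs of the 7 genes are named. From each pathway list, up to 6 genes with either kind of added start (upstream, or in frame with the main stop) are named, those with most ORFs first, and all with no listed ORF. Some genes that this rule names are not reported here. Families with a member's exon pattern were named after their values were seen, as were the cell type markers given as examples. Python 3.11.15 and matplotlib 3.10.9 were used. Gene lengths, neighbours and promoter windows came from RefSeq, GRCm38.p6, and no coordinate was moved between builds. No genome of mm9 was used, so start codons and ORF sequences were not read.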

Additional observations from a re-analysis of the deposited data

How the results depend on the processing

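For 6 counts and 1 median score under 10 alternative settings, 9 values moved, by over 1.5 times for a count and by any amount for the median, and 61 did not. When the ORF of highest score served as main, upstream ORFs and families with one went from 0 to 1 each, the 1066-codon ORF of Irf9, and the median main score from 962 to 969. Counting splice variants as other in-frame starts gave 3 such ORFs in 2 families, in place of 0. Score minimums of 600, 750 and 900 each took the in-frame isoforms from 1 to 0, since that of Irf1 scored 532, and the last took the median main score to 969. Of 14 structure counts with the longest or any ORF in place of the leading one, a choice added after seeing the data, 27 values were within 1.5 times, and the members with the phases of Irf3 went from 1 to 2, Irf4 being the second. With the longest ORF, phase 0 and then 1 was found in 6 of 7 members, Irf9 being left out. No paired analysis was possible because the list carries no value per library. The list shows which ORFs the authors scored in the pooled data, and neither their use in a library nor their absence from cells.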
